A study of Mus musculus with 55 samples.

Results

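The genes described here encode the machinery that decides whether a blood stem or progenitor cell leaves G1: the 3 D cyclins (Ccnd1, Ccnd2, Ccnd3), the kinases Cdk4, Cdk6 and Cdk2, the Cip/Kip inhibitors Cdkn1b and Cdkn1c, and the INK4 inhibitors Cdkn2c and Cdkn2d. They were taken by symbol, with no threshold on their values, and all 10 were found among the 55421 rows of the first count table and among the 35976 rows of the second. RNA was sequenced in bulk from small sorted pools of mouse bone marrow cells (200 cells, full-length mRNA amplification with a SMART-seq kit). The first set holds 46 libraries of LT-HSC, ST-HSC, CMP, GMP, MEP and CLP from mice labelled WT and Tet2-/-, with 4 libraries in each group except the WT LT-HSC and WT ST-HSC groups, which have 3. The second set holds 9 libraries of LT-HSC only, 3 each labelled WT, Sting-/- and DKO.

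All mice were on the C57BL/6 background. The Tet2-/- mice carried Tet2 f/f alleles and Mx1-Cre, a Cre gene under an interferon-responsive promoter that poly(I:C) switches on in blood cells and in other tissues, and they were kept for weeks after induction. The DKO mice carried Tet2 f/f, Sting-/- and Mx1-Cre, and the Sting-/- mice lacked Sting from the germ line. The label WT names no allele, and whether those mice received Cre or poly(I:C) is not stated for each sample. LT-HSC were Lin- cKit+ Sca1+ CD48- CD150+ cells, ST-HSC the same but CD150-, CMP, GMP and MEP the fractions of Lin- cKit+ Sca1- cells set apart by CD34 and CD16/32, and CLP the CD127+ cells with intermediate Sca1.

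In mammalian cells the D cyclins bind Cdk4 or Cdk6, and the complexes begin to phosphorylate the retinoblastoma protein, which frees E2F factors to switch on genes of DNA replication. Cyclin E with Cdk2 completes that step. INK4 proteins bind Cdk4 and Cdk6 and keep D cyclins off them, while Cip/Kip proteins bind cyclin complexes and block Cdk2. Long-term stem cells are mostly out of cycle, the committed progenitors below them divide often, and Cdkn1c and Cdk6 are known as a brake on and a gate out of that resting state.

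In WT, 6 of the 10 members differed among populations, where 44.6% of all genes tested did. No genotype difference of a member within a population passed the test with edgeR. Of all genes, edgeR called 4.57%, 4.37% and 4.36% in CMP, GMP and MEP, and 0.0245%, 0.0185% and 0.00766% in LT-HSC, ST-HSC and CLP. DESeq2 called 1 member, Ccnd3 in GMP, beside 5.45% of all genes there. In WT mice Cdk6 was lowest in LT-HSC and CLP and highest in CMP, with means of 352 ± 49.1 (SD, n = 3) and 1626 ± 112 (n = 4) counts per 1000000 counts of the library (CPM) in LT-HSC and CMP, Ccnd2 was highest in CLP and LT-HSC and lowest in MEP, and Cdkn2d was high in both stem cell populations and low in GMP and MEP. Cdkn1c, at the lowest level of all members, read 3.29 CPM or more in every WT LT-HSC library of the first set and at most 2.14 CPM in its other WT libraries. It did not pass the edgeR test among WT populations (adjusted p = 0.0836) or at the step from LT-HSC to ST-HSC. The only member whose genotype difference varied among populations, Ccnd2, lost that call without the CLP libraries and with another scaling of them. In the second set Cdk6 was higher in DKO than in WT LT-HSC in all 3 libraries, short of the threshold with edgeR and past it with DESeq2. Sex and some marker genes followed the label in these groups.

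CPM values are given after TMM scaling, which corrects each library's total for a few dominant genes. A member was called where the edgeR quasi-likelihood test gave a Benjamini-Hochberg adjusted p under 0.05 over all genes tested and the change was at least 2-fold. The libraries held 50458473 to 102148079 counts in the first set (median 70118186.5) and 26776517 to 78682096 in the second, so that 3 counts corresponded to 0.0272 to 0.0943 CPM and to 0.0421 to 0.105 CPM. The labels do not say which libraries came from the same mouse, and the p-values measure the spread between these libraries. Because each library is bulk RNA, fewer cells of one type in a pool and less RNA per cell cannot be told apart.

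Several checks bear on the labels. Tet2 ranges in libraries labelled Tet2-/- overlapped those of WT in all 6 populations, as in LT-HSC (12 to 40.4 CPM against 11.2 to 14.3) and CMP (6.05 to 25.8 against 17.4 to 23.5), and since the counts include exons that Cre does not remove, they check nothing. GMP and MEP libraries had high sums for their own marker lists, and both stem cell populations for theirs, though not for every gene. In MEP Itga2b read 1.31 to 9.77 CPM, under its 28 to 92.5 in CMP, and Klf1 238 to 399 in WT but 25.3 to 48.3 in Tet2-/-. In ST-HSC, sorted as CD150-, Slamf1 was low in both genotypes, at 0 to 1.59 CPM in WT and 0 in all Tet2-/- libraries. B cell genes were high in the CLP libraries. Ighm, the immunoglobulin heavy chain, took 10.3% to 15.9% of all counts in the WT libraries and 0.0616%, 4.11%, 9.84% and 9.56% in Tet2-/- numbers 2 to 5, the summed level of 4 B cell genes was 567 to 1267 CPM and 99.7 to 669 CPM, and the lymphoid progenitor gene Rag1 was at 0 in all 4 WT CLP libraries and at 9.38, 2.2, 0.0594 and 19.3 CPM in Tet2-/- numbers 2 to 5. Of the same CLP marker list, Il7r, which encodes CD127, read 371 to 650 CPM in WT CLP and 231 to 1120 CPM in Tet2-/- CLP. In the other populations of the first set it read at most 10.3 CPM. Dntt read 0.88 to 663 CPM in WT CLP and 131 to 1657 CPM in Tet2-/- CLP, and Flt3 0 to 97.2 and 35.5 to 175 CPM. Rag2 and Ebf1 read at most 70.3 and 13.5 CPM there. The 6 lowest TMM factors of the set (0.516 to 0.756) were those of CLP libraries. Genes of the GMP marker list summed to 5.06 to 3235 CPM in WT CLP (median 664) and to 2.84 to 12593 CPM in Tet2-/- CLP (median 3358). The part of these genes in the results on CLP was not tested. Scaling by the plain library totals, added after seeing the data, moved the members' log2 values from ST-HSC to CLP by a median of -0.75 in WT and -0.25 in Tet2-/-. The share of counts from mitochondrial genes was 8.73% to 9.02% in WT and 10.0% to 13.1% in Tet2-/- ST-HSC, and 5.94% to 6.57% and 7.85% to 8.37% in CMP, and 3.64% to 4.60% and 4.74% to 5.09% in GMP, without overlap, and its part in the genotype differences was not tested.

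**Figure D1:**
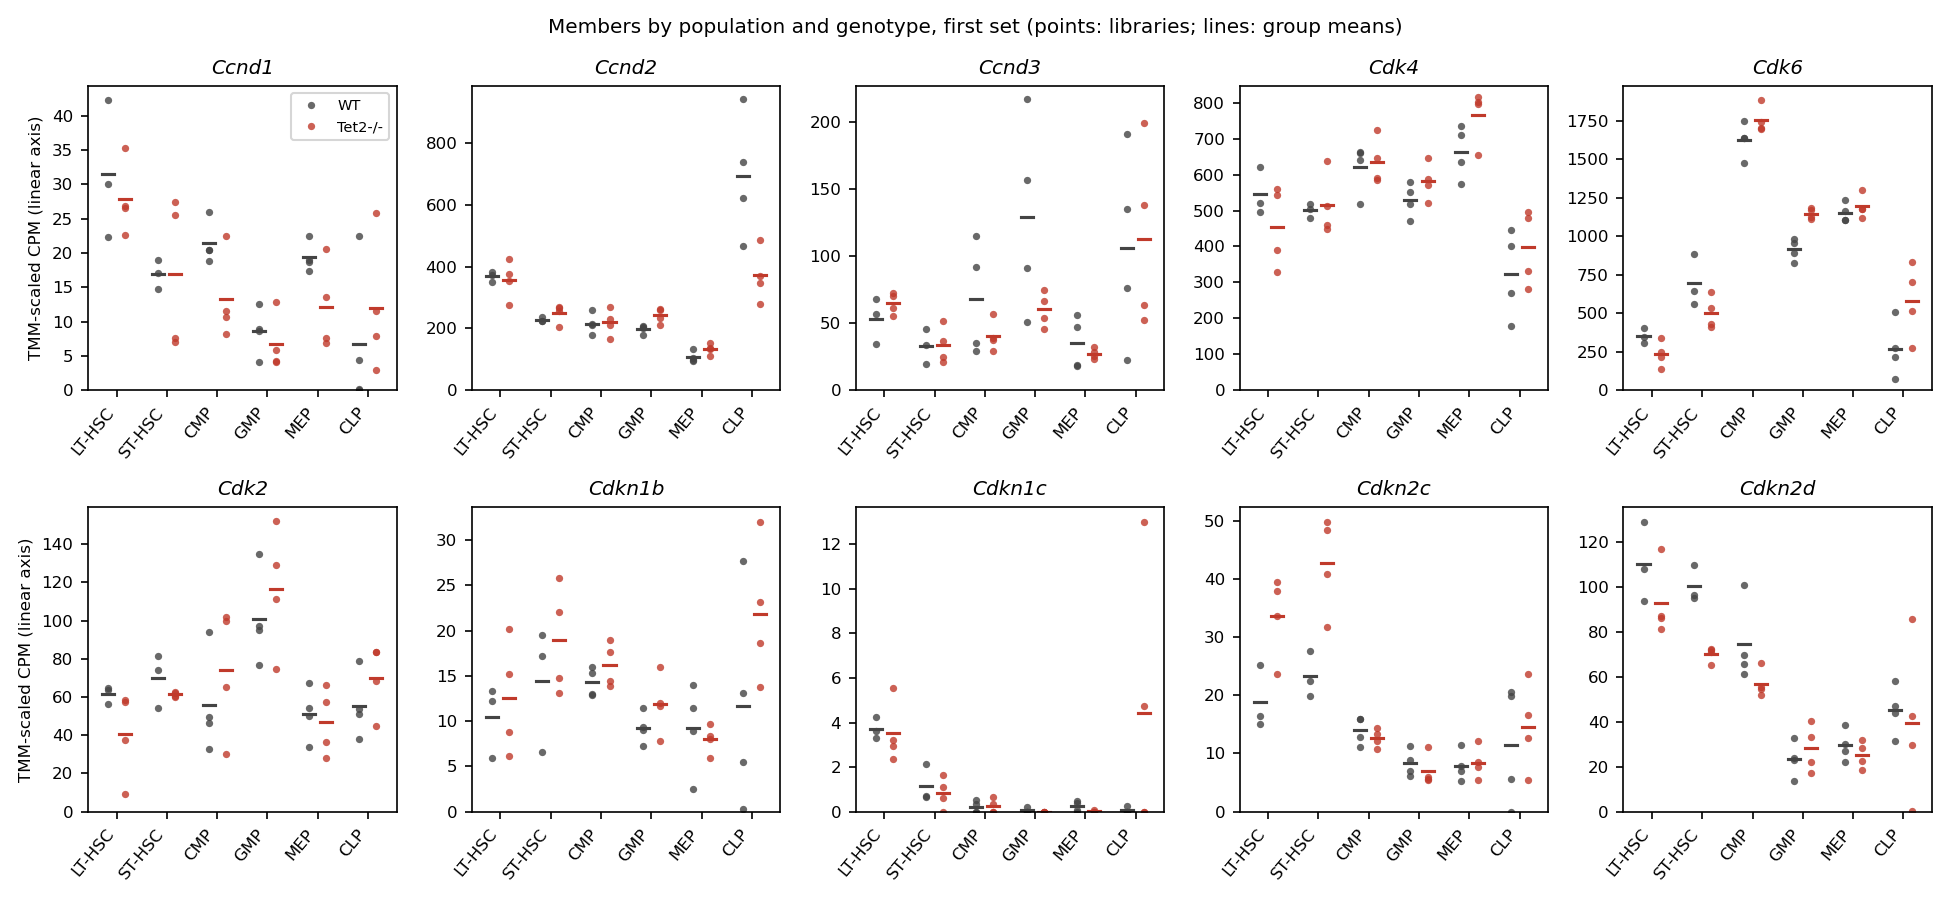
TMM-scaled CPM of the 10 members (y axis, linear and starting at 0) in each population (x axis) of the first set, with a point for each library and a short line at the mean of each WT and each Tet2-/- group. Cdk6 peaks in CMP, at 1478 to 1750 CPM in WT, Ccnd2 is lowest in MEP, and the WT and Tet2-/- points of most members lie among each other.

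In WT, 6 of the 10 members differed among the 6 populations (F test over all of them, adjusted p under 0.05), beside the 44.6% of all genes. They were Ccnd2 (adjusted p = 9.93e-09), Cdkn2d (3.31e-06), Cdk6 (3.4e-05), Cdk4 (0.00566), Ccnd3 (0.0443) and Cdk2 (0.0462), whereas Cdkn1c (0.0836), Ccnd1 (0.461), Cdkn2c (0.571) and Cdkn1b (0.942) did not pass. The calls of Ccnd3 and Cdk2 were the weak ones, kept in 6 and 5 of the 22 fits that each left out 1 library, while the other 4 were kept in all 22. Cdk2 did not pass with the replicate block (0.0782), RLE scaling (0.0669) or no low-count filter (0.0709). Ccnd3 did not pass with no low-count filter (0.0612) or plain library totals (0.0698). Both passed with DESeq2 (0.0283 and 0.00681) and without CLP (0.0351 and 0.0207). In Tet2-/-, 8 of 10 members passed, against 40.2% of all genes: all but Ccnd1 (0.127) and Cdkn2d (0.223). Cdk2 (0.0458) and Cdkn1b (0.0462) kept their calls in 7 of the 24 fits that each left out 1 library, and Cdkn2d passed without Tet2-/- CLP number 2 (0.000135) and without all CLP libraries (7.98e-06). Ccnd1 passed with the replicate block (0.0221), DESeq2 (0.0387) and without CLP (0.0356), while Cdk2 and Cdkn1b did not pass with the block (0.06 and 0.0676) or with no low-count filter (0.0839 and 0.0708). The count ran from 6 to 10 over the alternatives.

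Step by step down the hierarchy, WT members were called 6 times in 50. From LT-HSC to ST-HSC no member was called by edgeR or DESeq2 (2 at an unadjusted p under 0.05, as were 8.85% of all genes), with 0.175% and 3.76% of all genes called. From ST-HSC to CMP the count was 0 by edgeR (1 unadjusted, beside 20.7% of all genes) and 1 by DESeq2 (Cdk6), with backgrounds of 5.0% and 10.7%. From ST-HSC to CLP 3 of 10 members passed with a background of 24.5%, from CMP to GMP 1 of 10 with 3.15%, and from CMP to MEP 2 of 10 with 6.45%. In Tet2-/- the calls by edgeR were 0, 2, 2, 0 and 0 for the same steps, against 0.118%, 3.33%, 20.1%, 3.08% and 3.62% of all genes. At each of the 3 steps with 0 there were 3 members at an unadjusted p under 0.05, beside 8.57%, 18.0% and 16.7% of all genes. DESeq2 called 1 member at each of these, Cdk6 from LT-HSC to ST-HSC, Cdkn1c from CMP to GMP and Cdkn1b from CMP to MEP, beside 3.71%, 7.97% and 10.0% of all genes. The Cdkn1c call sets a GMP group with no count in any library against a CMP group with none in 2 of 4. In the same order of steps, the median change of the members in WT was -0.11, -0.05, -0.84, -0.67 and -0.61 on the log2 scale, where the median over all genes tested was 0.0, 0.0, -0.10, 0.0 and -0.12. In Tet2-/- the members' medians were -0.09, -0.22, 0.18, -0.46 and -0.61, beside 0.0, -0.06, -0.10, 0.01 and -0.09.

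**Figure D2:**
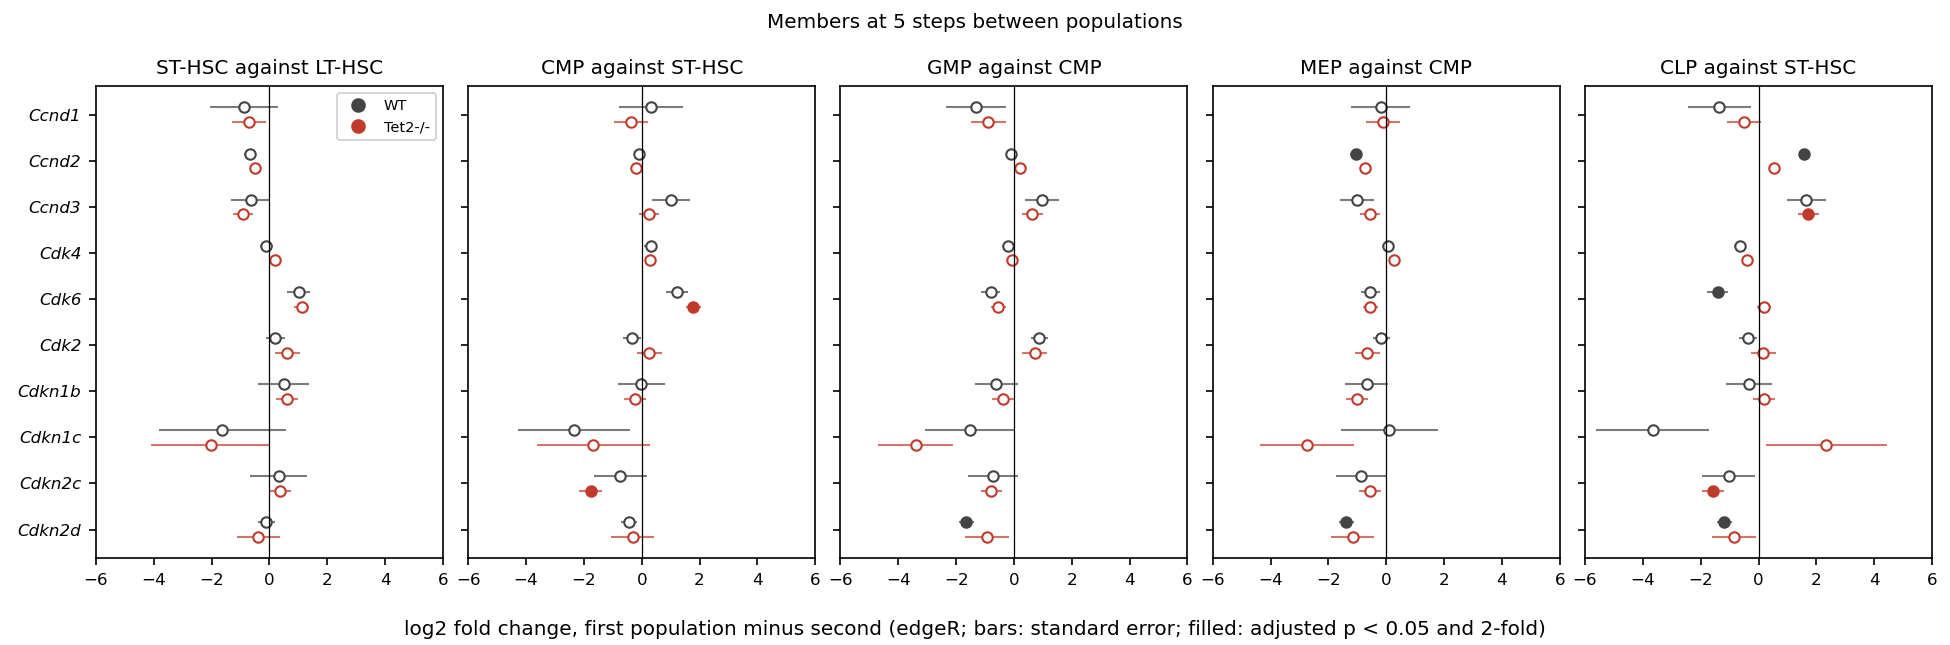
log2 fold change of each member (x axis, with its standard error as a bar) at 5 steps between populations, in WT and in Tet2-/- mice. Filled symbols passed the adjusted p of 0.05 and 2-fold, as Ccnd2 did at ST-HSC to CLP (1.58) and at CMP to MEP (-1.06) in WT.

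Ccnd2 (ENSMUSG00000000184, mm10 chr6:127125162-127152193, minus strand) encodes cyclin D2, the D cyclin that mitogens and cytokines induce in many blood cells. Its WT CPM were 350, 382 and 373 in LT-HSC, 238, 223 and 224 in ST-HSC, 178, 212, 259 and 214 in CMP, and 209, 179, 206 and 200 in GMP. In WT MEP the values were 103, 94.7, 98.4 and 132, and in WT CLP they were 468, 943, 739 and 623. The order of the means was thus CLP, LT-HSC, ST-HSC, CMP, GMP, MEP, in which ST-HSC, CMP and GMP overlapped and the other neighbours did not. Ccnd2 fell from CMP to MEP by 1.06 on the log2 scale (SE 0.18, 2.09-fold, adjusted p = 0.000474), and without WT CMP number 4 the drop was 0.92 and so under 2-fold. From LT-HSC to ST-HSC the difference was -0.67 (SE 0.20, unadjusted p = 0.00372, adjusted p = 0.292).

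From ST-HSC to CLP Ccnd2 rose by 1.58 (SE 0.20, 3.0-fold, adjusted p = 6.62e-06) with TMM scaling. Relative to the plain library totals the rise was 0.74 (adjusted p = 0.00218), and that scaling moved the members' values at this step by a median of -0.75. The direction was the same, and the size under 2-fold. The Tet2-/- CLP libraries held 371, 279, 488 and 348 CPM, and with TMM scaling Ccnd2 lay lower in them than in WT CLP by 0.90 (SE 0.32, unadjusted p = 0.0191, adjusted p = 1.0, and 0.000931 to 1.0 over the alternatives, none at 2-fold and an adjusted p under 0.05), with only number 4 reaching the lowest WT value. Taken on the plain total, the CPM were 334, 539, 381 and 427 in WT and 392, 302, 369 and 257 in Tet2-/-, which overlap. The WT library with most Ighm (15.9%) had most Ccnd2, and the Tet2-/- library with the least Ighm (0.0616%) was second of its group.

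**Figure D3:**
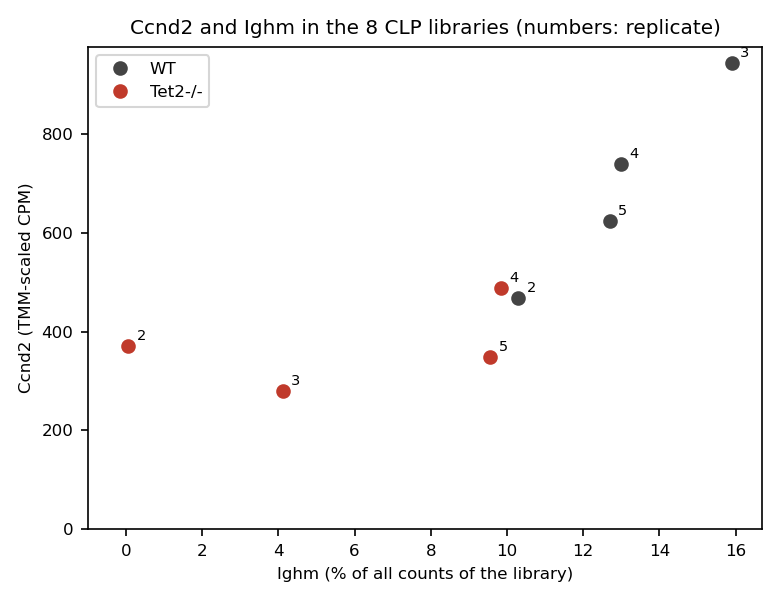
Ccnd2 in TMM-scaled CPM (y axis) against the share of all counts that Ighm takes, in percent (x axis), for the 4 WT and 4 Tet2-/- CLP libraries, numbered as in the labels. The WT points lie at 10.3% to 15.9% Ighm and 468 to 943 CPM, the Tet2-/- points at 0.0616% to 9.84% and 279 to 488 CPM.

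Outside CLP, Ccnd2 differed little between the genotypes. In GMP the Tet2-/- libraries held 262, 235, 260 and 211 CPM, all above the 4 WT libraries though by little (log2 difference 0.25, SE 0.11, adjusted p = 0.283). In MEP they held 132, 153, 136 and 111 CPM, which overlapped WT (log2 difference 0.30, adjusted p = 0.342). In LT-HSC, ST-HSC and CMP the differences were -0.02, 0.16 and 0.01. In Tet2-/- Ccnd2 changed by 0.55 from ST-HSC to CLP (1.46-fold, adjusted p = 0.0368) and -0.72 from CMP to MEP (1.65-fold, adjusted p = 0.0258).

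Ccnd1 (ENSMUSG00000070348, chr7:144929931-144939925, minus strand) encodes cyclin D1, which many solid tissues use more than blood does, and per kilobase of transcript it was the lowest D cyclin. The 3 WT LT-HSC libraries held 42.2, 30.1 and 22.3 CPM, all above the ST-HSC libraries at 18.9, 14.8 and 17.1. WT GMP, at 4.11 to 12.5 CPM, lay below WT CMP and WT MEP, which spanned 17.3 to 25.9. In WT CLP it ran from 0 to 22.5. With CLP left out, a choice made after seeing the data, Ccnd1 did vary among the WT populations (adjusted p = 0.000815) and fell from CMP to GMP by 1.33 (adjusted p = 0.00318), where the fit with CLP gave -1.31 and an adjusted p of 0.632.

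In CMP the Tet2-/- values of Ccnd1 were 11.6, 8.14, 22.4 and 10.7 CPM against 20.4, 20.4, 25.9 and 18.8 in WT. Number 4 was the one Tet2-/- library inside the WT range. The log2 difference was -0.71 (SE 0.31, adjusted p = 0.24), and without that library it was -1.09 and passed (adjusted p = 0.0273). The MEP difference was alike in size at -0.69 (SE 0.33, adjusted p = 0.353). Part of the Ccnd1 exons (23.36%) is shared with LTO1, which had 27114 counts over the first set against 52720 for Ccnd1, and whether the counting used strand is not given in the sources used here.

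Ccnd3 (ENSMUSG00000034165, chr17:47505051-47599691, plus strand) encodes cyclin D3, needed for the expansion of lymphoid and red cell precursors. Its values varied widely between WT libraries. WT GMP held 217, 51, 91.5 and 157 CPM, WT CLP 191, 135, 22.6 and 75.9, WT CMP 92.2, 115, 29.1 and 35.5, and the stem cells and MEP 18.2 to 68.3. The WT libraries of GMP and of CLP were spread wider than the populations were apart, and most ranges overlapped. In Tet2-/- the CLP values were 199, 52, 63.5 and 138, each above the ST-HSC values of 51.9, 25.1, 36.7 and 21.2, and Ccnd3 rose at that step by 1.72 (SE 0.36, 3.29-fold, adjusted p = 0.00194). In WT the same step was 1.65 (SE 0.67, adjusted p = 0.071), and it passed with DESeq2 (1.78, adjusted p = 0.0176, where DESeq2 called 29.4% of all genes), in the fit of all 46 libraries (1.67, adjusted p = 0.0267), with the replicate block (1.75, adjusted p = 0.0241) and without WT CLP number 4 (1.97, adjusted p = 0.0212).

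In GMP, Ccnd3 was lower in Tet2-/- at 45.7, 74.9, 66.8 and 54.1 CPM, by 1.12 on the log2 scale (SE 0.36, 2.18-fold, unadjusted p = 0.00996, adjusted p = 0.107). WT number 3, at 51, lay within the Tet2-/- range and the other 3 WT libraries above it. This difference passed with DESeq2 (adjusted p = 0.00813) and when WT number 3 was left out, and in no other alternative that adjusts p. A small stretch of Ccnd3 (4.11% of its exons) overlaps Bysl.

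Cdk4 (ENSMUSG00000006728, chr10:127063534-127067920, plus strand) and Cdk6 (ENSMUSG00000040274, chr5:3341485-3531008, plus strand) are the catalytic partners of the D cyclins. Per kilobase of transcript Cdk4 was the most abundant member, at a median of 386 CPM per kb over the 46 libraries (125 to 574), and Cdk6 came next at 77.0 (6.15 to 164). Over the 22 WT libraries the log2 levels of Cdk4 and Cdk6 had a Pearson r of 0.835, the highest of any pair of members, while Ccnd2 ran against both (-0.808 with Cdk6 and -0.773 with Cdk4). The CLP libraries, with low Cdk4 and Cdk6 and high Ccnd2, share in all 3 values. The stretches just before the start sites of the 3 kinases are shown because Cdk4 and Cdk6 moved together and Cdk2 did not, with the E-box CACGTG, the E2F words TTTCCCGC, TTTCGCGC, TTTGGCGC and TTTGCCGC, and CCAAT searched on both strands and found words in capitals (RefSeq, GRCm38.p6, 5′ to 3′ on the gene's strand). The Cdk6 stretch is the exon-free start of its upstream window and lies inside the gene's span.
Cdk4, chr10:127063285-127063533, plus strand: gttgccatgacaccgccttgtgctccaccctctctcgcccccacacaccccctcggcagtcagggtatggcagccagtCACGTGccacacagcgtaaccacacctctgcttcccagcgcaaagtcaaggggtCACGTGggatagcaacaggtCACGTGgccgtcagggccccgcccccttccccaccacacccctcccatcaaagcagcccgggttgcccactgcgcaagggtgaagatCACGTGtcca
Cdk6, chr5:3343643-3343731, plus strand: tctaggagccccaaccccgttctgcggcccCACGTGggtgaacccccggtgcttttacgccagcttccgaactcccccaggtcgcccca
Cdk2, chr10:128705052-128705301, minus strand: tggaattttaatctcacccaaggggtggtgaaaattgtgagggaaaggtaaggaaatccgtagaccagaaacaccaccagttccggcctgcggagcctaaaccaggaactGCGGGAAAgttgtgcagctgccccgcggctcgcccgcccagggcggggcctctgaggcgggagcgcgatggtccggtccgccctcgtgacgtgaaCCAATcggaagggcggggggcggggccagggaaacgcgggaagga

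The Cdk4 stretch holds CACGTG 4 times and the Cdk6 stretch once. Of 32851 windows from 250 bases before to 50 bases after a gene start, 7.15% held CACGTG at least once and 0.0244% (8 windows) 4 times or more. The Cdk2 stretch holds no CACGTG but an E2F word on the opposite strand and a CCAAT, found in 2.26% and 37.4% of the windows. The printed stretches are shorter than these windows, and the whole windows of the same kinases held the same matches. Among the other members with a window, CACGTG was found only in a window of Cdkn2c, 34 bases after the start. These are matches of letters only, and no binding was measured.

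The level of Cdk6 was low in LT-HSC and several times higher in CMP. Its WT values were 307, 404 and 345 CPM in LT-HSC, 647, 884 and 562 in ST-HSC, 1638, 1750, 1637 and 1478 in CMP, 891, 828, 955 and 984 in GMP, and 1163, 1234, 1103 and 1108 in MEP. WT CLP ranged from 70.8 to 509. In the order CMP, MEP, GMP, ST-HSC, LT-HSC, CLP, only GMP with ST-HSC and LT-HSC with CLP overlapped. Cdk6 fell from ST-HSC to CLP in WT by 1.41 (SE 0.35, 2.66-fold, adjusted p = 0.00554), and with plain totals the change was -2.12. From ST-HSC to CMP the WT difference was 1.22 (SE 0.37, 2.33-fold, adjusted p = 0.0539), and from LT-HSC to ST-HSC it was 1.0 (SE 0.38, adjusted p = 0.471). With the CLP libraries left out both passed, at 1.22 and at 1.01 (adjusted p = 0.00119 for the second).

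In Tet2-/- mice Cdk6 stood at 245, 341, 135 and 218 CPM in LT-HSC, 433, 533, 412 and 639 in ST-HSC and 1741, 1697, 1886 and 1701 in CMP. Each population lay apart from the next. The rise from ST-HSC to CMP was 1.79 (SE 0.26, 3.45-fold, adjusted p = 0.000865), and that from LT-HSC to ST-HSC, 1.12 (SE 0.26, adjusted p = 0.118), passed with DESeq2 (adjusted p = 0.0036), without CLP (0.00819), without Tet2-/- CLP number 2 (0.0157) and without Tet2-/- LT-HSC number 3 (0.0419). Against WT, Cdk6 was -0.56 (SE 0.30, adjusted p = 0.998) in LT-HSC, -0.44 (SE 0.22, adjusted p = 0.889) in ST-HSC, 0.10 (SE 0.075) in CMP and 0.04 (SE 0.075) in MEP. In GMP the Tet2-/- libraries, at 1185, 1168, 1112 and 1124 CPM, all stood above the 4 WT ones, by 0.29 on the log2 scale (SE 0.089, 1.22-fold, unadjusted p = 0.00754, adjusted p = 0.0892).

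The CLP values of Cdk6 were 509, 217, 70.8 and 271 CPM in WT and 276, 513, 703 and 836 in Tet2-/-. In all, 3 of the Tet2-/- libraries exceeded every WT library, and number 2, the library with almost no Ighm, lay among the WT values. Mpo, a GMP marker, ran from 2.77 to 1799 CPM in WT CLP and from 1.71 to 7157 CPM in Tet2-/- CLP. Kit, of the stem cell list, read 76.2 to 95.9 CPM in WT CLP and 106 to 277 CPM in Tet2-/- CLP, without overlap. The sums of that list did overlap (198 to 424 CPM in WT and 289 to 541 CPM in Tet2-/-), as did its other genes, such as Ly6a (98.1 to 333 and 20.4 to 390 CPM). The part of Mpo and Kit in the Cdk6 values was not tested. The log2 difference of Cdk6 was 1.14 (SE 0.57, unadjusted p = 0.078, adjusted p = 1.0), and it passed only in the fit of all 46 libraries (1.12, adjusted p = 0.0176). On plain totals the CPM were 363, 124, 36.5 and 186 in WT and 292, 555, 531 and 618 in Tet2-/-, in the same arrangement.

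Cdk4 moved within a narrow band. WT means were 663 ± 74.1 CPM in MEP (SD, n = 4), 621 ± 68.9 in CMP, 546 ± 65.8 in LT-HSC (n = 3), 531 ± 47.0 in GMP and 500 ± 19.7 in ST-HSC (n = 3), and the ranges of each of these overlapped with its neighbour. The 4 WT CLP libraries, at 445, 271, 178 and 401 CPM, lay below every other WT library. From ST-HSC to CLP Cdk4 was 0.65 lower (SE 0.21, 1.57-fold, adjusted p = 0.0271), past the p threshold but under 2-fold, and with plain totals it passed both (-1.40, adjusted p = 0.000347). Between genotypes its largest difference was 0.30 in CLP, and in MEP 3 of 4 Tet2-/- libraries (803, 797, 815 and 654 CPM) stood above the WT range of 573 to 735 (log2 difference 0.20, SE 0.10, adjusted p = 0.397). Of the Cdk4 exons, 19.73% are shared with Tspan31, which had 352798 counts over the first set against 1852064 for Cdk4.

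Cdk2 (ENSMUSG00000025358, chr10:128697939-128705031, minus strand) is the kinase of cyclins E and A, at the passage into S phase. It was highest in GMP in both genotypes, at 96.9, 95.1, 135 and 76.8 CPM in WT and 111, 129, 152 and 74.5 in Tet2-/-. Those ranges overlapped each other and the CMP range, in WT through CMP number 3 alone (94 CPM, the other 3 at 32.9 to 49.7). WT ST-HSC number 5 (81.7 CPM) and WT CLP number 2 (78.9 CPM) also exceeded the lowest WT GMP library. In Tet2-/-, CLP numbers 4 and 5 (83.6 CPM each) exceeded the lowest GMP library. From CMP to GMP the difference was 0.87 in WT (SE 0.29, adjusted p = 0.108) and 0.72 in Tet2-/- (adjusted p = 0.421), and without WT CMP number 3 the WT value was 1.20 and passed (adjusted p = 0.0177). The other WT populations had means of 51.4 to 70.1 CPM. Tet2-/- LT-HSC number 5, at 9.39 CPM, stood far below the other 3 of its group (37.5 to 58.4), and the genotype difference there was -0.58 (adjusted p = 0.998).

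Cdkn1b (ENSMUSG00000003031, chr6:134920401-134925513, plus strand) encodes p27, the Cip/Kip inhibitor that accumulates in resting cells. Its mRNA was low and even, with WT means from 9.21 ± 4.91 CPM in MEP to 14.4 ± 6.90 in ST-HSC (SD, n = 4 and 3), and no population stood apart from the rest. The Tet2-/- means ran from 7.99 ± 1.55 CPM in MEP to 21.9 ± 7.74 in CLP (n = 4 each). Tet2-/- differed from WT by -0.21 to 0.91 on the log2 scale, with the largest value in CLP, where 1 WT library was at 0.299 CPM and another at 27.7. No step and no genotype comparison of Cdkn1b passed with edgeR, and DESeq2 called the step from CMP to MEP in Tet2-/- (-1.02, adjusted p = 0.0351).

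Cdkn1c (ENSMUSG00000037664, chr7:143458339-143461050, minus strand) encodes p57, which keeps adult stem cells out of cycle. In WT it read 3.29, 4.25 and 3.64 CPM in LT-HSC and 0.648, 2.14 and 0.711 in ST-HSC, and elsewhere at most 0.504. LT-HSC stood above all other WT libraries. In Tet2-/- LT-HSC it read 5.57, 2.35, 2.95 and 3.23 CPM, in ST-HSC 0.602, 1.65, 0 and 1.10, and in all 4 GMP libraries 0. The LT-HSC values again lay above those of ST-HSC, CMP, GMP and MEP. Tet2-/- CLP broke the pattern, with 13 and 4.74 CPM in numbers 2 and 5 and 0 in the other two. Genes of the macrophage list summed to 23.4 to 174 CPM in those 4 libraries and to 0.3 to 38.1 in WT CLP. In Tet2-/- CLP the sums were mostly Vcam1 (up to 135 CPM, and up to 15.5 in WT) and Mrc1 (up to 55.9, and up to 24.5 in WT). C1qa and C1qb were at 0 in every CLP library, and Adgre1 overlapped (0 to 11.0 in Tet2-/- and 0 to 14.0 in WT). The part of these genes in the Cdkn1c values was not tested. The step from LT-HSC to ST-HSC was -1.64 in WT and -2.02 in Tet2-/- (adjusted p = 1.0 in both). Cdkn1c did not pass the filter on low counts for the test between genotypes in GMP, MEP and CLP, and in CLP 5 of the 8 libraries held no count of it.

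Cdkn2d (ENSMUSG00000096472, chr9:21288410-21291407, minus strand) encodes p19Ink4d, an inhibitor of Cdk4 and Cdk6. WT values were 108, 129 and 94.0 CPM in LT-HSC, 95.1, 96.3 and 110 in ST-HSC and 61.5, 65.8, 69.7 and 101 in CMP. They were 23.8, 32.9, 13.6 and 22.8 in GMP, 38.5, 30.1, 27.0 and 22.3 in MEP, and 47.2, 58.0, 43.8 and 31.5 in CLP. The stem cells and CMP form one upper group that overlaps at its edges, and no library of GMP, MEP or CLP reached it. Cdkn2d fell at 3 steps, with log2 changes of -1.66 from CMP to GMP (SE 0.26, 3.15-fold, adjusted p = 0.000679), -1.39 from CMP to MEP (SE 0.26, 2.62-fold, adjusted p = 0.0015) and -1.18 from ST-HSC to CLP (SE 0.27, 2.26-fold, adjusted p = 0.00312). With plain totals the last was -2.0.

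The fit of all 46 libraries lost these 3 calls (adjusted p = 0.151 to 0.205) with values of -1.68, -1.34 and -1.16. This fit estimates a single spread for both genotypes, and the cause of the loss was not tested. In Tet2-/- one CLP library, number 2, had Cdkn2d at 0.104 CPM where the other 3 had 42.5, 29.8 and 85.8. The Tet2-/- steps were -0.94 from CMP to GMP (adjusted p = 0.608) and -1.17 from CMP to MEP (adjusted p = 0.52). Without that library they kept their sizes with adjusted p of 0.05 and 0.0155. In ST-HSC the 4 Tet2-/- values of Cdkn2d, 71.2, 65.4, 72.2 and 72.4 CPM, all lay below the 3 WT ones (log2 difference -0.49, SE 0.16, unadjusted p = 0.0168, adjusted p = 0.564). In CMP, at 54.7, 55.3, 51.9 and 66.3 CPM, all but number 5 lay below the WT range (log2 difference -0.40, SE 0.18, adjusted p = 0.259).

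Cdkn2c (ENSMUSG00000028551, chr4:109660876-109667189, minus strand) encodes p18Ink4c, the INK4 inhibitor known to limit stem cell self-renewal. In LT-HSC its values were 16.5, 25.2 and 15 CPM in WT and 38.0, 39.4, 33.7 and 23.7 in Tet2-/-. All but number 5 of the Tet2-/- libraries lay above WT. In ST-HSC the values were 22.4, 27.6 and 19.8 in WT and 31.8, 49.8, 48.4 and 40.9 in Tet2-/-, without overlap, as was the mitochondrial share of these libraries. The log2 differences were 0.85 in LT-HSC (SE 0.32, unadjusted p = 0.0271, adjusted p = 0.833) and 0.90 in ST-HSC (SE 0.26, unadjusted p = 0.00762, adjusted p = 0.492), and in CMP, GMP, MEP and CLP they were -0.16, -0.28, 0.10 and 0.35.

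The progenitor means of Cdkn2c were lower than those of ST-HSC in both genotypes. Tet2-/- CMP read 12.2, 10.7, 13.3 and 14.3 CPM, below every Tet2-/- stem cell library, and WT CMP read 16, 11.1, 16 and 12.8. In Tet2-/- Cdkn2c fell from ST-HSC to CMP (-1.77, SE 0.38, 3.41-fold, adjusted p = 0.0116) and from ST-HSC to CLP (-1.56, SE 0.38, 2.96-fold, adjusted p = 0.00573). Both calls were lost in the fit of all 46 libraries (adjusted p = 0.138 and 0.0881), and the first also without Tet2-/- CMP number 3. The changes themselves ran from -1.874 to -1.686 and from -1.893 to -1.293 over the alternatives. The WT changes at the same steps were -0.74 (adjusted p = 0.77) and -1.04 (adjusted p = 0.443). With CLP left out Cdkn2c differed among the WT populations as well (adjusted p = 0.000504). The test of whether its genotype difference varied among populations gave an adjusted p of 1.0.

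Between Tet2-/- and WT, none of the 10 members was called in any population by edgeR. At an unadjusted p under 0.05 the counts were 1 in LT-HSC, 2 in ST-HSC, 2 in CMP, 3 in GMP, 0 in MEP and 1 in CLP, where 5.16%, 6.13%, 19.1%, 17.3%, 16.4% and 3.65% of all genes lay under it. DESeq2 called 1, Ccnd3 in GMP, beside 0.887%, 1.15%, 6.03%, 5.45%, 5.98% and 0.911% of all genes in the same order. Of all genes tested, 0.0245% were called by edgeR in LT-HSC, 0.0185% in ST-HSC, 4.57% in CMP, 4.37% in GMP, 4.36% in MEP and 0.00766% in CLP. In LT-HSC, ST-HSC and CLP nearly nothing was called at all, and a count of 0 members there is near that background. In CMP, GMP and MEP the median member change was 0.01, 0.17 and -0.13 on the log2 scale, beside 0.03, 0.03 and 0.05 over all genes tested. MEP marker genes summed to 698 to 1689 CPM in WT CMP and to 2928 to 5793 in Tet2-/- CMP. Most of that sum was Car1 (349 to 1322 and 2521 to 5288), and Tfrc (79.1 to 104 and 138 to 198) and Epor (15.5 to 24.4 and 28.5 to 48.7) of the same list were also higher without overlap, whereas Klf1 was lower in Tet2-/- (26 to 70.9 and 13.7 to 19.2) and Gata1, Gfi1b and Itga2b overlapped. Genes of the stem cell marker list summed to 212 to 271 CPM in WT GMP and 323 to 351 CPM in Tet2-/- GMP, nearly all of it Kit (199 to 257 and 298 to 330), which encodes a surface marker of the GMP sort, while Slamf1, Procr, Mecom, Fgd5, Hoxb5 and Ly6a were at most 4.75 CPM and overlapped. Sums without overlap were also those of the MEP list in GMP (101 to 126 in WT, 173 to 193 in Tet2-/-, mostly Tfrc), the CLP list in CMP (182 to 299 and 119 to 145) and GMP (120 to 186 and 93.6 to 109), both mostly Ighm, and the stem cell list (196 to 231 and 233 to 293, mostly Kit) and erythrocyte genes (117 to 327 and 60.8 to 84.8) in MEP. The part of those differences in the values of these populations was not tested.

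**Figure D4:**
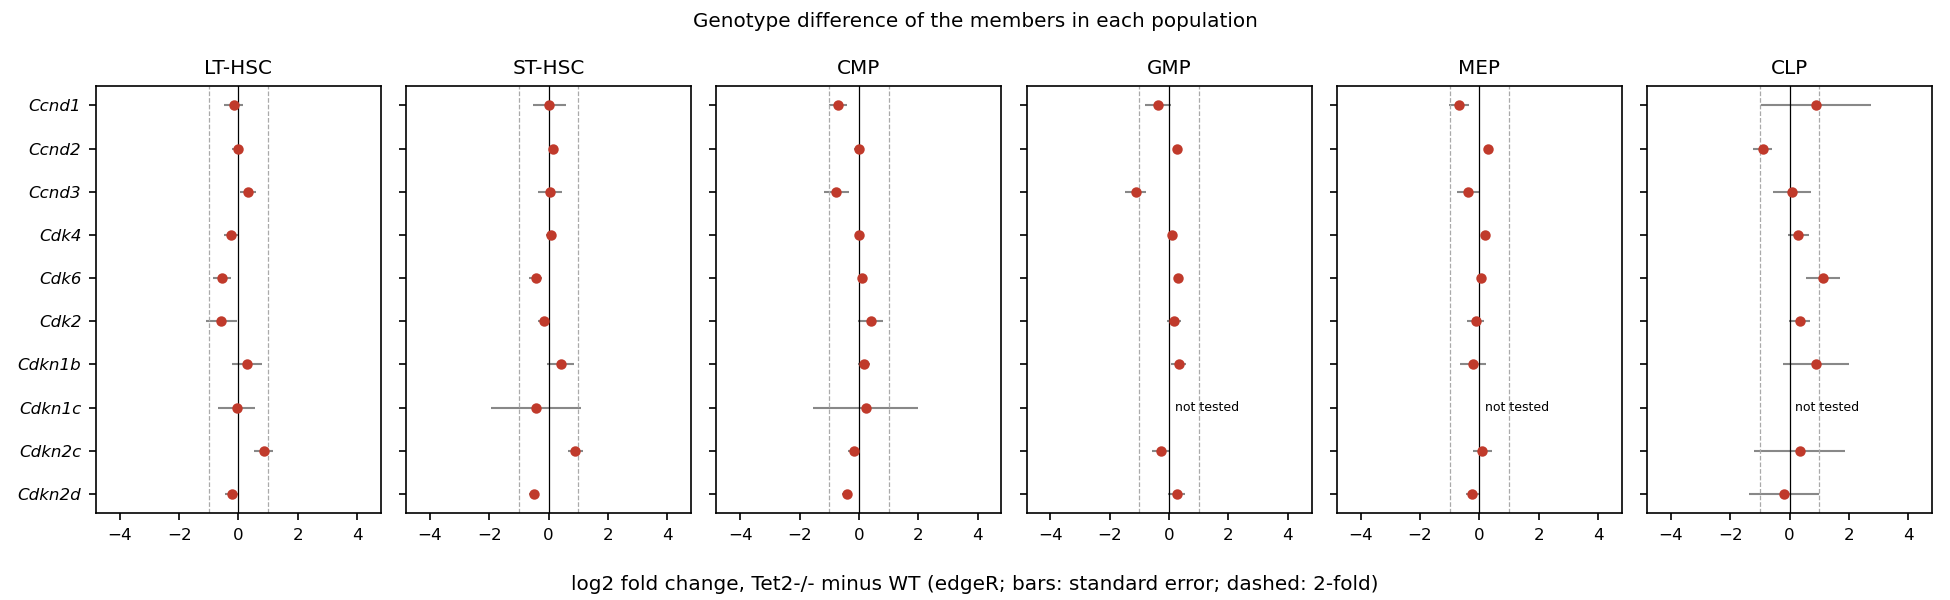
log2 fold change of each member between Tet2-/- and WT (x axis, bars give the standard error) in each population, with dashed lines at 2-fold. No member passed the edgeR test, and DESeq2 called Ccnd3 in GMP, where it called 5.45% of all genes. Cdkn2c in ST-HSC (0.90), Ccnd3 in GMP (-1.12) and Ccnd2 in CLP (-0.90) are among those farthest from 0.

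Whether the genotype difference varied among the 6 populations was tested in one fit of all 46 libraries. Ccnd2 was the 1 member of 10 that passed (adjusted p = 0.0127), with 2.65% of all genes. Its call held when any one library was left out (adjusted p = 0.00107 to 0.0459), but with the CLP libraries left out the adjusted p was 0.771, and with plain library totals in place of TMM it was 0.367. Cdk6 went the other way, from 0.127 to 0.0253 with plain totals, to 0.00491 without WT CLP number 2 and to 0.0299 without Tet2-/- CLP number 2, and it gave 0.094 without CLP. Both results thus rest on how the CLP libraries are scaled and used.

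To ask whether a member was shifted across committed progenitors as a whole, the log2 levels of CMP, GMP, MEP and CLP were averaged for each library number and the 4 Tet2-/- numbers compared with the 4 WT numbers by a two-sided exact permutation test, whose smallest possible p is 0.0286. The labels do not say that a number is a mouse, so each mean joins libraries that share only a number. No member reached 0.05. Cdk6 came nearest, with 10.06 ± 0.19 in Tet2-/- against 9.60 ± 0.29 in WT (mean log2 CPM, SD, n = 4 each), a difference of 0.45 and an exact p of 0.0571, and 3 of 4 Tet2-/- numbers lay above all WT numbers. With CLP left out of the mean the difference fell to 0.165 (10.387 in Tet2-/- and 10.222 in WT), with an exact p of 0.0286. A difference of 0.64 in Cdkn1b had an exact p of 0.114.

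The genes whose levels ran most like 9 of the members over the 22 WT libraries, among 8830 genes of at least 10 CPM on average, were named by Pearson r of log2 levels, as a description. Cdk6 was most like Ino80c, Rfc2 and Hdac2 (0.915, 0.902 and 0.902) and Cdk4 like Dtymk, Cenpw and Aimp2 (0.951, 0.95 and 0.949). Cdkn2d was most like Ctla2b, Rgs1 and Ctla2a (0.918, 0.906 and 0.892), Ccnd2 like Fam214a, Csrnp1 and Faah (0.949, 0.948 and 0.941), Ccnd1 like Polr3g, Rbm15 and Tmem237 (0.957, 0.945 and 0.942) and Cdkn2c like Ranbp9, Oas1a and Sirt1 (0.971, 0.968 and 0.967). Cdk2 had no close partner, with a best value of 0.752 for Ppp2r2a. Cdkn1b was nearest to Ip6k2 (0.858) and Cdkn1c to Gng5 (0.839). The libraries share populations, so the r values carry the differences between populations and the CLP libraries' scaling.

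The neighbours of the members in the cycle were followed with 2 lists of 25 genes, one of further G1/S regulators and one of S and G2/M genes, of which 23 and 25 were tested. From ST-HSC to CMP in WT, 2 of the first list rose, E2f1 (2.85, SE 0.80, adjusted p = 0.0372) and E2f4 (1.32, SE 0.35, adjusted p = 0.0261), and 7 of the second, among them the mitotic kinase gene Plk1 (2.62), Ccna2 (2.43) and Rrm2 (2.26), beside the 5.0% of all genes called there. The list medians were 0.74 and 1.23. In Tet2-/- the counts at this step were 2 (Ccne2 and E2f4) and 4 (with Cenpa, Mcm5 and Mcm2 the largest), beside 3.33% of all genes, with medians of 0.76 and 1.72. From CMP to MEP the Cip/Kip gene Cdkn1a fell in WT (-3.17, SE 0.32, adjusted p = 1.73e-06) and in Tet2-/- (-3.02, adjusted p = 0.000566), the one call of either list at that step, beside 6.45% and 3.62% of all genes. From ST-HSC to CLP 7 (4 higher, 3 lower) and 3 (all higher) of the list genes were called in WT, beside 24.5% of all genes, and 5 (3 higher, 2 lower) and 5 (all higher) in Tet2-/-, beside 20.1%. From CMP to GMP 1 and 1 were called in WT and 0 and 1 in Tet2-/-, beside 3.15% and 3.08%.

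Between genotypes, the genes of cyclin E1 and cyclin A2, partners of Cdk2, were called lower in Tet2-/-. The log2 change of Ccne1 was -2.48 in GMP (SE 0.19, adjusted p = 1.43e-05) and -1.70 in MEP (SE 0.22, adjusted p = 0.00159). That of Ccna2 was -1.93 in GMP (SE 0.15, adjusted p = 1.35e-05) and -1.23 in MEP (SE 0.18, adjusted p = 0.00309). These were the only calls of the 2 lists in the 6 genotype comparisons. At 1 of 23 and 1 of 25 genes they are near the background of 4.37% in GMP and 4.36% in MEP, where 672 of 723 and 629 of 651 called genes were lower. Cdk2 itself differed by 0.17 and -0.13 in those populations.

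In the second set the LT-HSC libraries differed in more than the label. Xist was high in all 3 WT libraries (3543 to 8228 counts) and at most 806 in the other 6, and the Y-linked Eif2s3y had 7229 to 20154 counts in those 6 and at most 8 in WT, so in comparisons with WT sex and genotype cannot be told apart. Tmem173, which encodes Sting, had 6333, 0 and 3835 counts under the label Sting-/- and 0, 14 and 1128 under the label DKO, against 1788, 1168 and 0 in WT. The values below are therefore given for libraries by label. Cdkn1c was found in all 3 libraries labelled WT (4.85, 7.64 and 1.05 CPM) and in 2 of 3 labelled Sting-/- (4.10, 4.61 and 0 CPM).

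Cdk6 set the 3 labels apart in this set. It read 47.2, 26.8 and 49.6 CPM in WT, 125, 84.2 and 92.1 in Sting-/- and 174, 206 and 198 in DKO, and no group overlapped another. DKO against WT gave 2.23 on the log2 scale (SE 0.49, 4.68-fold, unadjusted p = 0.00085, adjusted p = 0.0628). DKO against Sting-/- gave 0.94 (SE 0.47, adjusted p = 0.485) and Sting-/- against WT 1.29 (SE 0.47, adjusted p = 0.919). DKO against WT passed the adjusted p with DESeq2 (3.93e-05) and in no other alternative that adjusts p, of which the one without the 3 libraries that hold Tmem173 against their label gave 2.21 and an adjusted p of 0.297. The Tet2-/- LT-HSC of the first set had less Cdk6 than WT on average (235 and 352 CPM). The tables were counted apart, and the difference between the sets was not tested. Some marker genes of the second set also moved with the label. For T and NK cell genes, nearly all Nkg7, sums were 45.1 to 61.3 CPM in WT and 78.9 to 120 in DKO. Sting-/- (37.1 to 113) overlapped both. The MEP list summed to 108 to 202 in WT, 29.1 to 91.0 in Sting-/- and 108 to 125 in DKO. Ly6a read 105 to 195 in WT and 248 to 493 in DKO, while sums of its stem cell list overlapped. The part of these genes in the member values was not tested.

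As with Cdk6, no difference of the other members passed the test in this set (edgeR, adjusted p). Cdk4 read 482, 629 and 592 CPM in WT, 648, 571 and 935 in Sting-/- and 863, 1000 and 1063 in DKO, with DKO above WT throughout (0.78, SE 0.25, unadjusted p = 0.0102, adjusted p = 0.192). Against Sting-/- the DKO difference of Cdk4 was 0.44 (SE 0.25, adjusted p = 0.58). Cdk2 read 41.6, 80.4 and 59.6 in DKO, 77.4, 247 and 158 in Sting-/- and 122 to 186 in WT, so that DKO lay apart from WT but not from Sting-/-. Its log2 difference was -1.38 against WT (SE 0.54, unadjusted p = 0.0263, adjusted p = 0.281) and -1.41 against Sting-/- (SE 0.54, unadjusted p = 0.0241, adjusted p = 0.42). Ccnd3 read 304, 52.1 and 136 in WT, 47.3, 137 and 36.7 in Sting-/- and 33.5, 49.4 and 44.9 in DKO (-1.95 against WT, adjusted p = 0.293, and -0.79 against Sting-/-, adjusted p = 0.896), and 52.1 is the lone WT value near the DKO ones. Cdkn1c read 0, 0.028 and 0 CPM in DKO, under the level of 3 counts in all 3 libraries, against 1.05 to 7.64 in WT (unadjusted p = 0.0347, adjusted p = 0.307) and 0 to 4.61 in Sting-/- (unadjusted p = 0.0426, adjusted p = 0.441). Cdkn2c read 0, 0 and 13.1 CPM in DKO, 7.97 to 21.1 in WT and 10.4 to 29.8 in Sting-/-. Its log2 difference was -1.696 against WT (SE 2.643) and -2.275 against Sting-/- (SE 2.697), with an adjusted p of 0.964 in both. In LT-HSC of the first set it was 0.85 higher in Tet2-/- than in WT.

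By edgeR none of the 10 members was called in any of the 3 comparisons, with 5, 2 and 1 at an unadjusted p under 0.05 for DKO against WT, DKO against Sting-/- and Sting-/- against WT, beside 14.6%, 11.3% and 5.05% of all genes. DESeq2 called 1, Cdk6 in DKO against WT, beside 11.0%, 9.26% and 3.04% of all genes. The share of all genes called by edgeR was 1.13%, 0.686% and 0.00915%. Of the 2 cycle lists no gene was called either, and the median of the S and G2/M list was 1.37 for DKO against WT, 0.72 for DKO against Sting-/- and 0.53 for Sting-/- against WT, where the medians over all genes tested were -0.07, 0.02 and 0.0. In the same order, the medians of the G1/S list were -0.12, 0.17 and -0.12. The comparisons share libraries and are not independent of each other. The D cyclin of highest level per kilobase in this set too was Ccnd2, which held 1059, 763 and 693 CPM in WT and 274, 908 and 512 in DKO, with overlap (-0.57, adjusted p = 0.595).

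**Figure D5:**
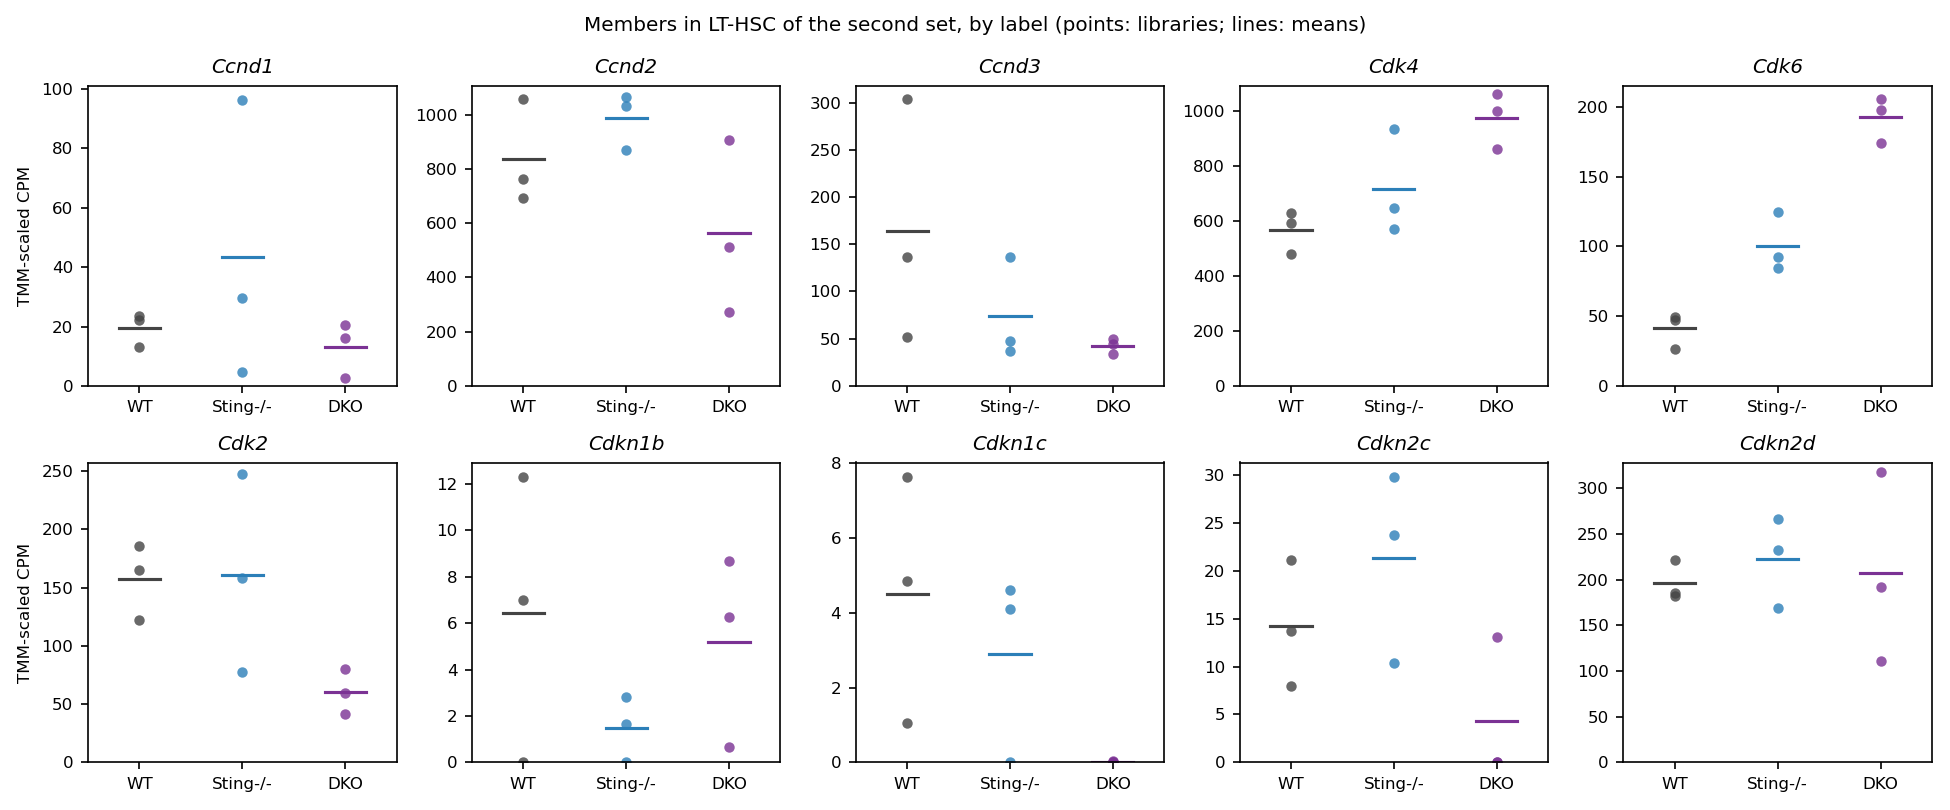
TMM-scaled CPM of the 10 members (y axis, linear and starting at 0) in the 9 LT-HSC libraries of the second set, by label, with group means as lines. Cdk6 lies at 26.8 to 49.6 CPM in WT, 84.2 to 125 in Sting-/- and 174 to 206 in DKO, while most other members overlap between labels.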

How the data were processed

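The authors trimmed reads with Trim Galore 0.6.7 and aligned them to mm10 with Hisat2, per the submitters' processing notes, and deposited raw counts per gene in one table for each set. The counting program and its use of strand are not given in the sources used here. Of the symbols in the first set, 119 are repeated, and 2 broken lines of the second table were left out. The tables were counted apart, and no test crosses them. Libraries were mapped to groups by their labels, and totals ranged from 26776517 to 102148079 counts, with floors that cover counting error only.

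Genes passed filterByExpr and were tested with edgeR 4.0.16 (TMM, quasi-likelihood F test, prior count 2) in R 4.3.3, with Benjamini-Hochberg adjustment over all genes. Genotypes were fitted within each population, populations within each genotype, and the interaction over all libraries. Exact permutation tests used scipy 1.17.1, and plots matplotlib 3.10.9. The fitting code was tested on simulated data. Alternatives were DESeq2 1.42.0, RLE scaling, no low-count filter, no fold minimum, a block for the library number, one fit of 46 libraries, and leaving out each library. Leaving out CLP, leaving out libraries by Tmem173, and scaling by plain totals were chosen after seeing the data. The members and lists were chosen with earlier results of these data known. All 10 members are named, with at most 3 called genes of largest change per list and up to 3 genes most alike by Pearson r, which are not reported here for Ccnd3. Gene positions follow GENCODE vM21, and the start-site stretches were read from RefSeq (7 members matched).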

Additional observations from a re-analysis of the deposited data

Results flagged for a closer look

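Among 99 groups of 4 libraries per member, 7 had a library far from the other 3, where chance alone marks about 1 in 20. For Cdkn2d, Tet2-/- LT-HSC number 4 held 117 CPM and the others 81.5 to 87.1. For Cdk4, WT CMP number 3 held 518 CPM and the others 640 to 664, and Tet2-/- MEP number 5 held 654 CPM and the others 797 to 815. For Cdkn2c, Tet2-/- GMP number 2 held 11.1 CPM and the others 5.46 to 5.94. Cdkn1c was 0.21 CPM in one WT GMP library, 0.0609 CPM in one Tet2-/- MEP library and 0.256 CPM in one WT CLP library, with the other 3 of each group at 0. Where 3 libraries are at 0, any count in the remaining one is flagged, so the rate of 1 in 20 does not apply to these Cdkn1c groups. The genotype difference of Ccnd2 varied among the 6 populations (edgeR, adjusted p = 0.0127), a result that rests on the CLP libraries and on their scaling.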

How the results depend on the processing

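Over all 187 member values in comparisons of 2 groups, the alternatives that refit the counts (not those that change the p or fold threshold) gave 4207 values, of which 4170 kept their side of the threshold, 29 came to pass it and 8 no longer passed it, and 0 called values changed sign. Between the genotypes 0 members were called. One member was called with an unadjusted p and 2-fold (1, Ccnd3 in GMP), with DESeq2 (1) and in one fit of 46 libraries (1, Cdk6 in CLP), and leaving out single libraries gave 0 to 1. At an unadjusted p and 2-fold, 547 of 16351 genes passed in LT-HSC, 592 of 16212 in ST-HSC and 1292 of 16047 in CMP. In GMP, MEP and CLP 1169 of 16563, 1085 of 14934 and 389 of 13060 passed. For any difference among WT populations the 6 calls became 4 to 7 without single libraries and 8 without CLP. The 6 calls at WT steps ranged from 5 to 8 without single libraries, and the 4 at Tet2-/- steps from 3 to 6, with 7 by DESeq2 (one of them Cdkn1c in GMP, a group at 0) and 2 in one fit of 46 libraries. The interaction count of 1 was 0 without CLP and 1 to 2 without single libraries, and with plain totals its 1 call was Cdk6 in place of Ccnd2. In the second set 0 calls became 7 with an unadjusted p and 2-fold. That rule passed 1392, 1136 and 465 of 10925 genes, with DKO against WT first and Sting-/- against WT last. The calls became 1 with DESeq2, beside 11.0%, 9.26% and 3.04% of all genes, and stayed 0 without single libraries. For the progenitor mean 0 became 1, Cdk6, with CLP left out. It was 0 to 0 without single numbers, where 3 against 4 allows no p under 0.0571 and shows nothing on stability. The causes of these changes were not tested, except that fewer libraries were fitted where some were left out. With the replicate block the counts were 0 between genotypes, 5 among WT and 7 among Tet2-/- populations, 7 and 4 at the WT and Tet2-/- steps, 1 for the interaction and 0 in the second set. Deviations of same-numbered libraries from different populations had correlations of -0.014 to 0.066 in WT (51 pairs) and -0.016 to 0.106 in Tet2-/- (60 pairs), not over 0.1 in every pair, so the numbers were not taken to pair the libraries in the tests across genes, and the progenitor mean, which joins them, rests on the number alone. No count of Cdkn1c was found in most progenitor libraries.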
